A study of Schizosaccharomyces pombe with 8 samples.

Results

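The nuclear tRNA genes of Schizosaccharomyces pombe are described here as they were read in an RNA immunoprecipitation (IP) of Lsm8. They were taken as all entries of the deposited gene table whose ID begins with SPATRNA, SPBTRNA or SPCTRNA, and were grouped by the amino acid written in the ID. This gave 171 genes of the 7014 listed. At least 1 read was assigned to 72 of them, 63 were read in the Lsm8 IP, 38 were read in the control IP, and 99 had no read in either library.

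The study examined Pof8, a La-related protein, in telomerase RNA biogenesis. The Lsm8 IP used strain PP585, in which the chromosomal lsm8 gene carries 13 c-Myc epitopes behind its coding sequence, and the alleles his3-D1, ura4-D18, leu1-32 and ade6-M216 are present (mating type h-). It was made with an antibody against c-Myc. The strain behind the control IP is not named in the sources used here. Each IP is 1 library of unstranded single-end 40-base reads, so no value has a replicate, no test between the IPs was possible, and the intervals below are exact 95% Clopper-Pearson intervals that cover counting error only. For the RNA-Seq arm of the study, with 3 pof8+ and 3 pof8Δ libraries, the deposited table lists 44 RNAs. The expression analysis in the paper was not limited to these RNAs. Among the 44, 1 nuclear tRNA gene, SPBTRNAGLY.09, was listed without counts, so no tRNA could be compared here between pof8+ and pof8Δ cells.

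Transfer RNAs are transcribed by RNA polymerase III as precursors with a 5′ leader and a 3′ trailer. Transcription ends within a run of T on the gene strand, which leaves the precursor with a tail of uridines. The La protein, Sla1 in fission yeast, binds such uridine tails. Lsm2-8, the nuclear ring of Lsm proteins of which Lsm8 is the distinguishing subunit, also binds uridine-rich 3′ ends and is best known from the U6 snRNA, another RNA polymerase III transcript. In budding yeast, Lsm proteins were found with tRNA precursors and contribute to their processing. RNase P removes the leader, tRNase Z removes the trailer, a tRNA splicing endonuclease cuts out the intron where there is one, and the CCA end is added afterwards, so uridine tails mark the unprocessed form.

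The tRNA genes are listed with no coordinates in the deposited table. Positions and sequences are therefore those that the RefSeq annotation gives for the same gene IDs in the ASM294v3 assembly, in which all 171 were found. Each sequence below runs 5′ to 3′ on the gene strand and holds the gene, introns included, and the 25 bases behind it. The capitals within the gene mark the anticodon, written as DNA, and the capitals behind the gene mark the first run of 4 or more T where it falls within the bases shown. The first 3 are tRNA-Gly genes, of which the first was by far the most read tRNA gene of the Lsm8 IP and the others stand for the remaining Gly anticodons. SPBTRNAGLY.09 lies at II:2069487-2069557 on the + strand, SPBTRNAGLY.05 at II:326235-326305 (+) and SPBTRNAGLY.06 at II:570156-570226 (+).
SPBTRNAGLY.09: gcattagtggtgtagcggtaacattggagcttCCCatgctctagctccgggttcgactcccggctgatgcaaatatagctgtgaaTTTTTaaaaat
SPBTRNAGLY.05: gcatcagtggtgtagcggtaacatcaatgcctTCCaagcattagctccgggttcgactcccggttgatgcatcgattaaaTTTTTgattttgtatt
SPBTRNAGLY.06: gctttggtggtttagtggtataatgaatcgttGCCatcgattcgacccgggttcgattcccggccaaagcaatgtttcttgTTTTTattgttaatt

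The next are 2 intron-containing genes that followed in read number, SPATRNAALA.06 at I:4796977-4797059 (+) and SPATRNAILE.02 at I:2578426-2578524 (+), and 2 tRNA-Phe genes of identical gene sequence, SPCTRNAPHE.04 at III:331228-331300 (-) and SPCTRNAPHE.05 at III:1142192-1142264 (-), which in the stretch shown differ only behind the gene.
SPATRNAALA.06: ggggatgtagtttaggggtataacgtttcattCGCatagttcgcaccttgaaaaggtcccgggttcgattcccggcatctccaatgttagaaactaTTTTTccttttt
SPATRNAILE.02: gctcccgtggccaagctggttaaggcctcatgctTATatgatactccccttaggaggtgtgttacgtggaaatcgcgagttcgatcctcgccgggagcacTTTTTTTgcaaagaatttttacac
SPCTRNAPHE.04: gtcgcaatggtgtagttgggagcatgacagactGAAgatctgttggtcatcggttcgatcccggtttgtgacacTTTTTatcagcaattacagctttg
SPCTRNAPHE.05: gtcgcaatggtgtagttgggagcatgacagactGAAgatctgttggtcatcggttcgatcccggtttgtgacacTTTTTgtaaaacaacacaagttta

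The last 2 had the lowest ratios of Lsm8 IP to control IP among the 30 tRNA genes with known counts and at least 10 reads. They are SPBTRNAMET.05 at II:1598075-1598155 (-), whose trailing bases run into a second tRNA gene, and SPBTRNAGLN.01 at II:257454-257525 (+), whose first T run lies beyond the bases shown.
SPBTRNAMET.05: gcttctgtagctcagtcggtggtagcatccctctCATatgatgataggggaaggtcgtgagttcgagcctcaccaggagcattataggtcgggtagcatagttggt
SPBTRNAGLN.01: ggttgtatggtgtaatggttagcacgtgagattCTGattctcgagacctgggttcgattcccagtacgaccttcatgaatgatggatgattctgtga

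Read counts were worked back from the deposited values. The Lsm8 IP held 6604836 reads and the control IP 942080, without those of 98 listed genes that were read in the control IP only, whose control counts could not be worked back. Among these were 9 tRNA genes. They hold at least 1 control read each but add none to the pooled counts below, so a pooled ratio that includes such genes is an upper estimate. The control IP total given in the paper exceeds this sum by more than 1 read for each of the 98 genes on average. How these reads divide over the genes is not known, so ratios below that count 1 control read for each may still be too high. Of the Lsm8 IP reads, 70.0% fell on U4 and U6 (snu4 and snu6), against 1.83% of the control IP reads. The choice of scaling therefore matters for every other RNA. Counts were divided by the median count of the genes that had any read, 108 for the Lsm8 IP and 43 for the control IP, and the ratio of such normalized counts, Lsm8 IP over control IP, had a median of 0.930 over all 6218 genes with at least 10 reads in the 2 libraries together. Scaling to total counts instead lowers every log2 ratio by 1.48, to a median ratio of 0.333, so that a ratio of 2.79 as given here is a ratio of 1 by total counts. The label was checked on the RNA that Lsm2-8 is known to bind. U6 had a ratio of 31.4 (30.9 to 32.0), and U1, which carries Sm proteins, had 0.355. The other snRNAs that carry Sm proteins were not low, with 19.4 for U2, 482 for U4 and 12.8 for U5.

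The nuclear tRNA genes together were read 3078 times in the Lsm8 IP, against 199 times in the control IP, a ratio of 6.16 (5.33 to 7.14) and of 2.21 (1.91 to 2.56) by total counts. SPBTRNAGLY.09 alone held 1797 of the 3078 Lsm8 IP reads, or 58.4%. Without it, the other 170 genes had 1281 and 174 reads, a ratio of 2.93 (2.50 to 3.45), which fell to 1.05 (0.896 to 1.24) by total counts. Counting 1 control read for each of the 9 genes gave 2.79 (2.39 to 3.27), and 0.998 by total counts. As a share of the library, all tRNA genes took up 0.0466% of the Lsm8 IP reads and 0.0211% of the control IP reads. Without SPBTRNAGLY.09 the shares were 0.0194% (0.0183 to 0.0205) and 0.0185% (0.0158 to 0.0214), and their intervals overlapped. In IPs of this kind, more of an RNA bound and more of it in the extract cannot be told apart, because no input library was analyzed here.

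**Figure D1:**
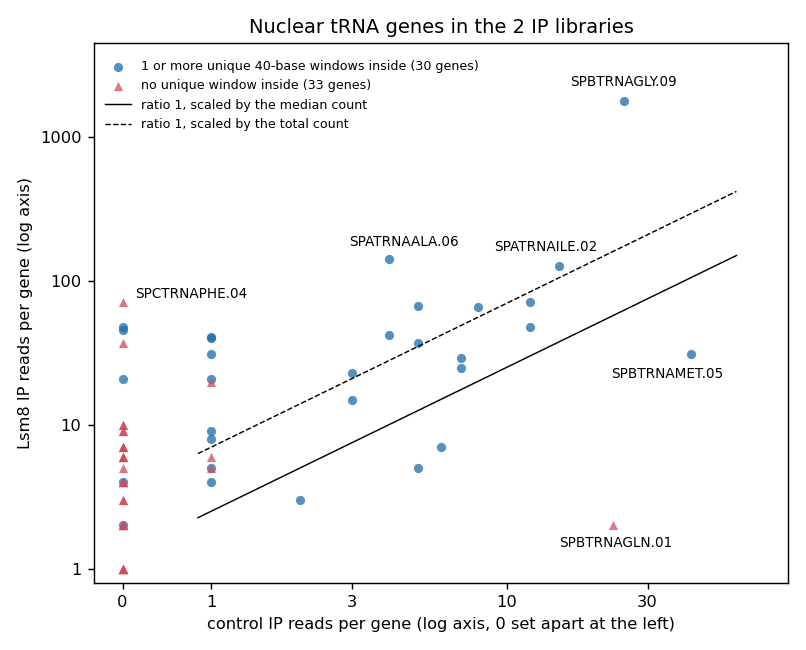
Reads per tRNA gene in the control IP (x axis) and the Lsm8 IP (y axis), both on log axes with 0 control reads set apart at the left. Each point is 1 of the 63 genes read in the Lsm8 IP, and its symbol says whether any 40-base stretch inside the gene is unique in the genome. The lines mark a ratio of 1 under scaling by the median count and by the total count. SPBTRNAGLY.09 lies far above both lines at 1797 reads, and SPBTRNAMET.05 and SPBTRNAGLN.01 lie below both.

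SPBTRNAGLY.09, which encodes tRNA-Gly with the anticodon CCC, was read 1797 times in the Lsm8 IP and 25 times in the control IP. Its ratio was 28.6 (19.3 to 44.3), and 10.3 (6.92 to 15.9) by total counts. It was the 1 tRNA gene that passed the enrichment rule of the study's methods when that rule was applied to the normalized counts defined above, which use other medians than the deposited values. The rule asks for a difference of at least 10 normalized counts together with a ratio above 2, and on these normalized counts 34 of all 7014 genes passed it (0.485%). Under total counts 0 tRNA genes passed, with the difference kept in units of the control median. That result depends on this unit, and no other unit was tried. With no control reads at all, that difference takes 1080 reads in the Lsm8 IP, and the tRNA gene with the next largest difference, SPATRNAALA.06, reached 1.23 normalized counts. The ratio of U6 lay inside the interval of SPBTRNAGLY.09.

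SPBTRNAGLY.09 is the only gene for its anticodon among the 12 tRNA-Gly genes. It is 71 bases long, has no intron, overlaps no listed gene, and its nearest listed neighbour, SPBC29A3.16, lies 223 bases away, with 61 Lsm8 IP reads and 29 control IP reads. The other 11 tRNA-Gly genes had 10 Lsm8 IP reads in all, spread over 5 genes, and no control read among those with known counts. The 8 genes with the anticodon GCC, which share 1 sequence, differ from SPBTRNAGLY.09 at 24 of 71 bases, and had 0 to 2 Lsm8 IP reads each. All 32 of the 40-base windows inside SPBTRNAGLY.09 are unique in the genome, whereas none is in the 8 GCC genes, so these could be assigned reads only through the bases around them and cannot be ranked against it by reads. The 3 genes with the anticodon UCC, SPBTRNAGLY.04, SPBTRNAGLY.05 and SPCTRNAGLY.12, differ from it at 14, 11 and 10 bases and have 14, 7 and 8 unique windows inside. They had 0, 2 and 4 Lsm8 IP reads, against the 1797 of SPBTRNAGLY.09. In the sequence shown above, the T run of SPBTRNAGLY.09 begins 14 bases behind the gene, against a median of 3 bases over the tRNA genes that have one within 60 bases.

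Next in Lsm8 IP reads was SPATRNAALA.06, the only gene for tRNA-Ala with the anticodon CGC, at 143 reads against 4 in the control IP (ratio 14.2, 5.44 to 53.0). SPATRNAILE.02, the only gene for tRNA-Ile with the anticodon UAU, had 128 and 15 reads (3.40, 1.98 to 6.25). SPATRNAPRO.02 (anticodon CGG, again a gene without a second copy) had 72 and 12 reads (2.39, 1.29 to 4.84). By total counts the interval of SPATRNAALA.06 stayed above 1, whereas those of SPATRNAILE.02 and SPATRNAPRO.02 held 1. Only the first of these 3 genes thus lay above the control IP by more than counting error under both scalings.

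SPCTRNAPHE.04 had 72 reads in the Lsm8 IP and none in the control IP, which makes it at least 9.56-fold higher against a floor of 3 control reads. The remaining genes among the 10 most read were SPATRNAVAL.03 with 67 and 5 reads, SPBTRNAASN.04 with 66 and 8, SPATRNALEU.01 with 48 and 12, SPATRNATYR.01 with 48 and 0 and SPBTRNALYS.06 with 46 and 0. Together these 10 genes held 80.8% of all tRNA reads of the Lsm8 IP. SPATRNATYR.01 overlaps the listed gene SPAC105.03c, which had 174 and 59 reads, and reads from the overlapping stretch cannot be told apart without strand.

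Among the 30 tRNA genes with at least 10 reads over both libraries, 20 had a ratio above 2, where 16.1% of all genes with that many reads did. The lower bound of the interval was above 2 for 6 of the 30 (4.92% of all genes), and 4 had a ratio below 1 (54.4% of all genes). Genes with no control read were given no interval, so 7 of the 30 could not be among these 6. Their median ratio was 3.34, against 0.930 over all genes. The tRNA genes were not alone in this, since the median was 3.98 for mitochondrial tRNA genes (14 of 23 above 2) and 3.35 for snoRNA genes (18 of 31 above 2). By total counts 10 of the 30 had a ratio above 2 and the median was 1.20. These 30 genes reached the minimum mostly through the deeper Lsm8 library, 7 of them with no control read at all, so the counts describe the genes that could be seen and not the tRNA genes as a whole. Only 6 had 10 or more control reads. The highest ratios after SPBTRNAGLY.09 were those of SPBTRNAPHE.03 (41 reads against 1, ratio 16.3), SPCTRNAARG.10 (40 against 1, 15.9), SPATRNAALA.06 and SPATRNAMET.02 (31 against 1, 12.3). With 1 control read, their intervals begin at 2.77, 2.70 and 2.06, respectively, and end at 660, 645 and 503, so their order is not resolved. Genes with no control read entered this order with a lower bound against the floor of 3 reads, so some may stand higher. An example is SPCTRNAPHE.04, with 72 reads against 0 and a ratio of at least 9.56.

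Reads were pooled by amino acid because most single genes were sparse. Tryptophan tRNA genes had no read, histidine genes were read in the control IP alone, and the other 18 pools had Lsm8 IP reads. Glycine, with 1807 reads against 25, had a ratio of 28.8 (19.4 to 44.6), nearly all from SPBTRNAGLY.09. With 1 control read for its 1 gene read in the control IP alone, the ratio was 27.7 (18.8 to 42.5). Phenylalanine had 157 reads against 1 and a ratio of 62.5, with an interval from 11.1 to 2485. Alanine had 152 against 4 (15.1, 5.79 to 56.2) and tyrosine 71 against 3 (9.42, 3.10 to 46.8), the latter falling to 3.05 (0.922 to 15.9) without SPATRNATYR.01. Lysine had 73 reads and no control read, at least 9.69-fold higher against the floor. These 5 pools were above 1 under both scalings, and the intervals of the 4 with a control read overlap one another.

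Cysteine (21 against 1, ratio 8.36), valine (78 against 5, 6.21), isoleucine (136 against 15, 3.61) and asparagine (66 against 8, 3.28) were above 1, with intervals that began at 1.34, 2.55, 2.11 and 1.57. Cysteine and valine each have 1 gene read in the control IP alone, and with 1 control read for it their ratios were 4.18 (1.02 to 36.8) and 5.18 (2.27 to 14.5). By total counts their ratios were 3.00, 2.23, 1.29 and 1.18, with intervals that held 1. Arginine (93 against 14, ratio 2.64), proline (90 against 14, 2.56), serine (76 against 14, 2.16) and leucine (124 against 23, 2.15) also lay above 1. By total counts they stood at 0.948, 0.917, 0.774 and 0.769, again with intervals that held 1. Threonine, with 18 against 4 reads, had a ratio of 1.79 whose interval held 1 (0.590 to 7.28). Arginine has 2 genes read in the control IP alone, and serine and threonine have 1 each. With 1 control read for each gene, the ratios were 2.31 (1.35 to 4.22), 2.02 (1.15 to 3.78) and 1.43 (0.513 to 4.94), respectively. Aspartate had 9 reads and glutamate 4, all in the Lsm8 IP, too few to place either pool.

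Methionine and glutamine were the 2 pools below 1. Methionine had 70 reads against 44 in the control IP (ratio 0.633 , 0.428 to 0.946), and glutamine had 33 against 24 (0.547, 0.314 to 0.968). By total counts they stood at 0.227 and 0.196. In each, 1 gene supplied nearly all control reads, SPBTRNAMET.05 with 42 of 44 and SPBTRNAGLN.01 with 23 of 24. Of the 15 pools with a ratio, 12 had intervals above 1 and 2 had intervals below 1. By total counts, 4 were above and 2 below. These 4 counts were the same with 1 control read, the least possible, for each gene read in the control IP alone. The interval of cysteine then began at 1.02, so with more control reads it could hold 1.

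**Figure D2:**
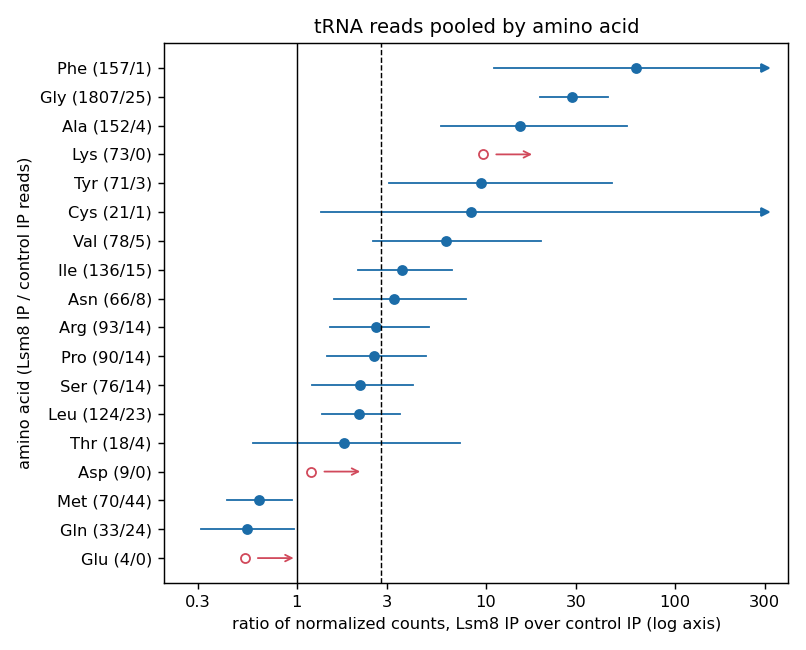
Ratio of normalized counts, Lsm8 IP over control IP, for tRNA reads pooled by amino acid (log axis), with the reads of both libraries beside each name. Filled points are ratios with exact 95% intervals for counting error, cut at 300, and open points with arrows are lower bounds for pools with no control read. The solid line is a ratio of 1 and the dashed line, at 2.79, a ratio of 1 by total counts. Glycine, phenylalanine and alanine lie right of both lines, and methionine and glutamine lie left of both.

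SPBTRNAMET.05, a tRNA-Met gene (anticodon CAU), was the tRNA gene with the most control IP reads. It was read 42 times there and 31 times in the Lsm8 IP, which gave a ratio of 0.294 (0.179 to 0.479). SPBTRNAGLN.01, a tRNA-Gln gene (anticodon CUG), had 2 and 23 reads, a ratio of 0.035 (0.0040 to 0.140), the lowest of the 30 genes. Both were below 1 under all 5 scalings. They stood apart from the rest in the control IP too, where, of the other tRNA genes with known counts, only SPBTRNAGLY.09 exceeded 15 reads, at 25. SPCTRNASER.11 (7 and 6 reads, ratio 0.465) and SPCTRNAARG.08 (5 and 5, 0.398) completed the 4 genes below 1, and their intervals held 1. SPBTRNALEU.05 (25 and 7 reads, 1.42) and SPBTRNAARG.05 (29 and 7, 1.65) were among the genes with the most control reads and likewise had intervals that held 1.

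Most tRNA reads fell on genes with a sequence of their own. Reads were counted only where they mapped to a single place, and the 171 genes have 69 different sequences. A 40-base window, the length of a read, was called unique where it occurs at no other place on either strand of the genome. Of the 37 genes with at least 1 unique window inside the gene, 30 were read in the Lsm8 IP. Of the 134 genes with none, 33 were, with at most 72 reads each. The 37 genes held 2818 of the 3078 Lsm8 IP reads and 173 of the 199 control IP reads. Reads on the 134 genes must reach into the flanking bases to map to a single place, unless they differ from the reference.

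Among the 36 genes with a unique window and without SPBTRNAGLY.09, the ratio was 2.75 (2.31 to 3.29) and 0.984 by total counts. The 134 genes without one had 260 and 26 reads, a ratio of 3.98 (2.66 to 6.21), of which SPBTRNAGLN.01 alone held 23 control reads. Without that gene, 258 reads stood against 3 and the ratio was 34.2 (11.6 to 167), or 12.3 by total counts. This takes 4 genes read in the control IP alone as 0, and with 1 control read each the ratio was 14.7 (7.02 to 36.9), or 5.26 by total counts. That gene was singled out after its values were seen. The tRNA-Phe genes are an example. SPCTRNAPHE.04 and SPCTRNAPHE.05 had 72 and 37 Lsm8 IP reads and no control read, although they and SPATRNAPHE.01 and SPATRNAPHE.02, with 3 and 4 reads, share 1 sequence in which no window is unique. In the sequences printed above, both have their T run 1 base behind the gene and differ from each other only after it. Whether the reads of these genes extended ahead of the gene or behind it was not tested, since the table gives no read positions.

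**Figure D3:**
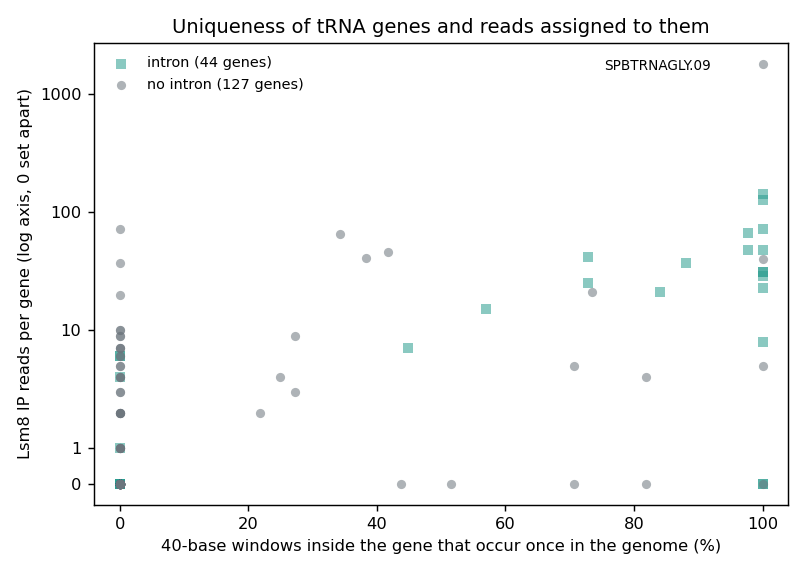
Lsm8 IP reads per tRNA gene (log axis, 0 set apart at the bottom) against the percentage of 40-base windows inside the gene that occur at a single place in the genome, for all 171 genes. Squares are the 44 genes with an intron and circles the 127 genes without one. Of the 10 most read genes, 9 had unique windows, and genes at 0% reached at most 72 reads.

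An intron lies in 44 of the genes, between 7 and 30 bases long, and 3 of these introns reach the 20 bases that the alignment required of an intron. What became of reads across a spliced tRNA was not tested. The intron-containing genes had 792 and 127 reads, a ratio of 2.48 (2.06 to 3.02) that fell to 0.890 (0.737 to 1.08) by total counts. The other genes, without SPBTRNAGLY.09, had 489 and 47 reads and a ratio of 4.14 (3.07 to 5.71), or 1.48 by total counts. These groups include 2 and 7 genes, respectively, that were read in the control IP alone. With 1 control read for each, the ratios were 2.44 (2.03 to 2.97) and 3.61 (2.72 to 4.87), and their intervals overlapped. Among genes with a unique window the ratios were 2.43 (2.01 to 2.95) and 4.66 (2.98 to 7.67), again without SPBTRNAGLY.09, and with those control reads 2.41 (1.997 to 2.93) and 3.92 (2.59 to 6.17), which overlapped as well.

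Behind the genes, a run of TTTT or more was searched on the gene strand in the first 60 bases. It was found for 167 of 171 tRNA genes (97.7%), against 44.6% of all 60-base windows of the genome on either strand, and within the first 10 bases for 144. Genes whose run began within 10 bases had 995 and 82 reads, a ratio of 4.83 (3.85 to 6.13). The 23 genes with a later run had 1993 and 61 reads and a ratio of 13.0, which became 2.17 (1.51 to 3.19) without SPBTRNAGLY.09 and then 0.777 by total counts. SPATRNAALA.06, with its run after 13 bases, held most of the reads that were left in this group.

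The 4 genes with no such run were the upstream members of tRNA pairs, in which a second tRNA gene follows on the same strand after 5 to 7 bases. In 3 pairs a tRNA-Ser gene precedes a tRNA-Met gene, and in the other SPBTRNAMET.05 precedes SPBTRNAASN.01. SPATRNASER.01 had 37 and 5 reads, SPATRNASER.03 had 15 and 3, SPCTRNASER.11 had 7 and 6 and SPBTRNAMET.05 had 31 and 42. Together they had 90 and 56 reads, a ratio of 0.640 (0.453 to 0.910). This rested on SPBTRNAMET.05, since without it the ratio was 1.68 and by total counts 0.601 (0.332 to 1.17). The 4 downstream members have no unique window inside and had no read in either library. Windows that reach into the bases around them include unique ones, 29 for SPATRNAMET.01, 37 for SPATRNAMET.03, 73 for SPBTRNAASN.01 and 29 for SPCTRNAMET.07. Some reads could thus have been assigned to them. Whether the transcripts of a pair were precipitated together was not tested.

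By chromosome, the tRNA genes had ratios of 4.59 (3.55 to 6.02) on chromosome I, 7.06 (5.87 to 8.55) on chromosome II and 5.65 (3.35 to 10.3) on chromosome III. Without SPBTRNAGLY.09, chromosome II had 330 and 95 reads and a ratio of 1.38 (1.10 to 1.76), or 0.495 by total counts, with SPBTRNAMET.05 and SPBTRNAGLN.01 among its genes.

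**Figure D4:**
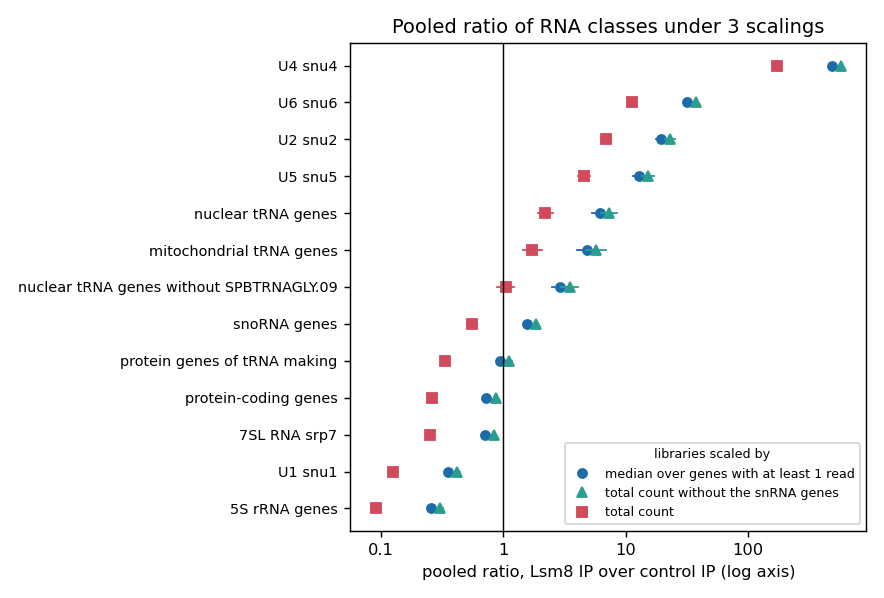
Pooled ratio, Lsm8 IP over control IP, of the tRNA genes and other RNA classes (log axis) under 3 scalings of the libraries. Lines through the points are exact 95% intervals for counting error. All classes shift together between scalings, and the tRNA genes without SPBTRNAGLY.09 lie at 2.93 by the median count and at 1.05 by the total count.

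Beside other RNAs in the same libraries, the tRNA pool lay below the spliceosomal snRNAs other than U1. U4, which pairs with U6, had a ratio of 482, U2 one of 19.4 and U5 one of 12.8. Among other RNA polymerase III transcripts, the 7SL RNA of the signal recognition particle (srp7) had a ratio of 0.710 (0.681 to 0.741) and the 5S rRNA genes a pooled ratio of 0.257 (0.245 to 0.271), both below the tRNA pool under any of the scalings, since these move all classes alike. The 5S rRNA genes also have near-identical copies. SPRRNA.17 held 42.0% of their Lsm8 IP reads, and the median ratio of the 11 of these genes with at least 10 reads was 1.64, on the other side of 1 from the pool. The 25 mitochondrial tRNA genes, which are transcribed inside mitochondria and not by RNA polymerase III, had 1628 and 135 reads and a ratio of 4.80 (4.03 to 5.77). Without their most read gene, SPMITTRNASER.02, they had a ratio of 3.41 (2.82 to 4.16), and this interval overlapped that of the nuclear tRNA genes without SPBTRNAGLY.09 (2.50 to 3.45). The 64 snoRNA genes had a pooled ratio of 1.56, below the median of 3.35 of the 31 with at least 10 reads, and the protein-coding genes had a pooled ratio of 0.731. What the mitochondrial tRNA reads have in common with the nuclear ones was not tested.

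The mRNAs of proteins that make tRNA were read as well, in a list that also held lsm2 to lsm8. Of the 32 genes in the list, 31 were matched, and together they had a ratio of 0.943 (0.893 to 0.996). Ratios above 2 were found for 5 of the 31, the same share as the 16.1% of all genes, and below 1 for 19, where 54.4% of all genes with at least 10 reads were. The 5 were maf1, the repressor of RNA polymerase III (217 and 14 reads, ratio 6.17), bdp1, a subunit of the initiation factor TFIIIB (210 and 16, 5.23), lsm2 (246 and 26, 3.77), lsm8 itself (90 and 12, 2.99) and sfc3, a subunit of TFIIIC (309 and 53, 2.32). By total counts, sfc3 fell below 1, at 0.832, and lsm8 was at 1.07. The mRNA of sla1, the La protein, had 122 and 79 reads and a ratio of 0.615, and that of trz1, a tRNase Z, had 140 and 38 and a ratio of 1.47.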

How the data were processed

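RIP-Seq libraries of 1 Lsm8 IP and 1 control IP were grouped by their labels. The authors aligned 40-base reads to ASM294v2 with STAR 2.5.2b, allowed up to 20 places per read, and counted reads that mapped to a single place and gene, ignoring strand. They deposited a signal, the count over the library median, and the ratio of this signal between the IPs. The deposited RNA-Seq table holds a count per library for 40 of 44 RNAs, none a nuclear tRNA gene, so the edgeR fit planned for SPBTRNAGLY.09 was not made. The authors' fold changes, p-values and enrichment mark were not used.

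Reads were worked back as the signal times 96 and, for the control IP, 37 times the signal over the ratio. Ratios against 0 control reads use a floor of 3 reads. Of the listed genes, 6846 were matched to ASM294v3. An anticodon that fits the ID was read in 169 tRNA genes. Intervals come from SciPy 1.17.1, with Python 3.11.15, NumPy 2.4.6, pandas 2.3.3 and Matplotlib 3.10.9. The steps were tested on simulated data.

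Named were tRNA genes past the enrichment rule, the 10 with the most reads in each IP, the 5 highest and 5 lowest ratios among those with at least 10 reads, and every amino acid pool. Members, lists and rules were chosen with earlier results of these data known. Alternatives covered scaling, thresholds, pseudocount, overlapping genes, the top genes left out and, for classes and amino acids added after seeing the data, 1 control read for each gene read in the control IP alone.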

Additional observations from a re-analysis of the deposited data

How the results depend on the processing

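Under total counts the pooled ratio became 2.21, the median ratio became 1.20, the tRNA genes above a ratio of 2 numbered 10, the enriched ones 0 (with the difference kept in units of the control median), the amino acid pools above 2 numbered 7 instead of 13, and SPBTRNAGLY.09 had 10.3. Values with an interval above 1 that crossed it were the pools of arginine (0.948), leucine (0.769), proline (0.917) and serine (0.774). Among classes added after seeing the data, they were unique genes without SPBTRNAGLY.09 (0.984), intron-containing genes (0.890, with a unique window 0.870), genes with a later T run without SPBTRNAGLY.09 (0.777) and chromosome II without SPBTRNAGLY.09 (0.495). Threonine (0.642) and the upstream pair genes without SPBTRNAMET.05 (0.601) crossed 1 from intervals that held it. The lower bound of aspartate (0.428) crossed 1 as well. Total counts without snRNA genes gave a pooled ratio of 7.33. Leaving out the most read gene gave 2.93 for the pool and, applied to each amino acid, 5 pools above 2. With 1 read as the minimum the median ratio was 1.82. The lower bound above 2 left 6 genes, where genes with no control read had no interval and could not count. No minimum difference gave 22 enriched genes. Of 217 alternative values, 174 kept to the interval or count range of the value given, 34 moved and 9 crossed 1 from an interval that excluded it. This tally is not a measure of robustness. Wide intervals hold most alternatives, and scalings other than total counts shift every log2 ratio by at most 0.252. Only 2 tRNA genes overlap another listed gene, so leaving them out cannot change most pools.

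No paired analysis was possible because each IP has 1 library and the RNA-Seq table holds no count for a tRNA gene; the planned fits for SPBTRNAGLY.09 and for the listed RNAs in pof8Δ were not run. With 1 library per IP, variation between IPs is unknown. A count of 0 allows up to 3 reads. Counts of tRNA genes depend on where 40-base reads map to a single place. Depth limits 6 of the 18 pools with Lsm8 IP reads, which have 3 known control reads or fewer, and the histidine pool has no known count.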
